A study of Mus musculus with 12 samples.

Results

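Of 51372 regions formed by pooling and merging the peaks of 6 deposited lists, 1467 held a peak of every list: H3K4me1, H3K4me2 and H3K4me3, each with vehicle and with the LSD1 inhibitor S2101. These regions, 2.86% of the total (95% Wilson interval 2.72 to 3.003%), are those in which no mark was absent from either treatment. They were chosen by peak presence in the same 6 lists that are described below, so their marks are a description and carry no test. The cells were C2C12, an established line of mouse myoblasts that can be differentiated into muscle fibres in culture. Differentiation was started in horse serum medium with 10 µM S2101 or with the vehicle and ran for 48 h (day 2), and crosslinked chromatin was then immunoprecipitated with antibodies against the 3 methylation states. There was 1 library per mark and treatment, without a replicate, so differences between treatments cannot be told apart from differences between libraries. H3K4me1 and H3K4me2 came from experiment 1 and H3K4me3 from experiment 2, so mark and experiment cannot be told apart.

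Histone H3 lysine 4 is methylated stepwise. The trimethylated form marks the nucleosomes around active gene starts, the monomethylated form is typical of enhancers and of the outer flanks of promoters, and the dimethylated form lies between and overlaps both. The demethylase LSD1, encoded by Kdm1a, acts on the mono- and dimethylated forms and leaves the trimethylated form. A stretch that holds all 3 states is often a promoter with its flanks. The files carry no gene names and no sequence of the mm9 build was at hand, so the regions are given by mm9 position (1-based) only.

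The lists hold between 13589 and 40432 peaks, with deposited scores from 100 to 3233.06, and their read depth is unknown. The regions with all 6 lists made up 8.68% of the bases of all merged regions. They held 7.76% of the vehicle and 10.2% of the S2101 H3K4me1 length, 13.3% and 16.1% of the H3K4me2 length, and 13.6% and 13.5% of the H3K4me3 length.

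In the regions with all 6 lists, H3K4me1 and H3K4me2 were listed over shorter stretches with S2101 than with vehicle, and H3K4me3 over slightly longer ones. The median region was 3038 bp wide (95% interval of the median 2942 to 3125 bp, quartiles 2192 and 4257 bp). H3K4me1 covered a median of 1080 bp with vehicle (quartiles 638 and 1768 bp) and 440 bp with S2101 (311 and 710 bp). H3K4me2 covered 2655 bp with vehicle (1899 and 3683 bp) and 1463 bp with S2101 (1042 and 2117 bp). H3K4me3 covered 2006 bp with vehicle (1336 and 2787 bp) and 2171 bp with S2101 (1516 and 3018 bp). With vehicle, H3K4me2 filled almost the whole region, 92.0% at the median, and with S2101 it filled 51.1%. H3K4me1 filled 37.9% and 16.1%, and H3K4me3 67.9% and 74.8%. Intervals here and below cover counting error over regions only.

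**Figure D1:**
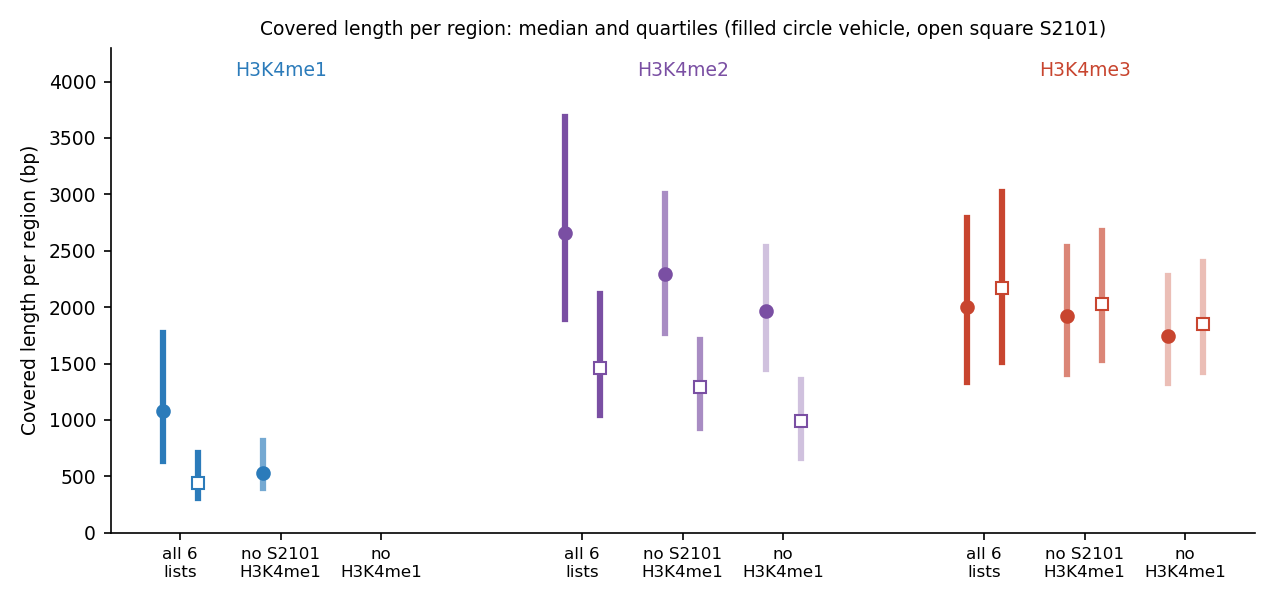
Length covered by each mark per region (y axis, bp): points are medians and bars run between the quartiles, filled circles for vehicle and open squares for S2101, for regions with all 6 lists (n = 1467), regions lacking only S2101 H3K4me1 (n = 3361) and regions with H3K4me2 and H3K4me3 in both treatments but no H3K4me1 (n = 6460). In the regions with all 6 lists the H3K4me1 median goes from 1080 to 440 bp, the H3K4me2 median from 2655 to 1463 bp and the H3K4me3 median from 2006 to 2171 bp.

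Region by region, the S2101 over vehicle ratio of covered length was 0.487 at the median for H3K4me1 (95% interval 0.469 to 0.5), 0.582 for H3K4me2 (0.571 to 0.593) and 1.07 for H3K4me3 (1.07 to 1.08). Over every region with the mark in both treatments the medians were 0.592 for H3K4me1 (12134 regions), 0.533 for H3K4me2 (13598 regions) and 1.06 for H3K4me3 (12715 regions). H3K4me1 was covered 0.5 times or less with S2101 in 773 of the 1467 regions (52.7%), where 36.6% of every region with H3K4me1 in both treatments had such a ratio. For H3K4me2 this was so in 476 (32.4%, background 42.8%) and for H3K4me3 in none (background 0.0157%). The background was not matched for the vehicle length of the mark, and the part of length in these gaps was not tested. H3K4me1 was shorter with S2101 in 1368 regions (93.3%, background 88.5%), and H3K4me2 in 1460 (99.5%, background 99.5%). H3K4me1 was 2 times as long or more in 5 (0.341%, background 0.338%), and H3K4me2 was longer in 7 (0.477%, background 0.463%). H3K4me3 was longer with S2101 in 1155 (78.7%, background 75%), and 2 times as long or more in 24 (1.64%, background 0.621%). In 1068 regions (72.8%) the total lengths of H3K4me1 and H3K4me2 were shorter and that of H3K4me3 longer with S2101. The single shares were 93.3%, 99.5% and 78.7%, so a joint share of this size needs no link between the marks. Every region with all marks in both treatments is among the 1467, so this joint share has no background. The ratios above come from the contrast that chose the regions and are given without a test.

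The H3K4me1 and H3K4me2 ratios of a region showed almost no correlation. Across the 1467 regions, the log2 ratios of H3K4me1 and H3K4me2 had Pearson's r = −0.0064 and Spearman's rho = 0.0088, although both marks come from the same experiment and share the region's width. For H3K4me1 and H3K4me3 the values were −0.031 and −0.015, and for H3K4me2 and H3K4me3 −0.019 and 0.037. The H3K4me1 ratio was lower where the vehicle H3K4me1 was longer (r = −0.54, rho = −0.571), a relation that shares the vehicle length between its axes. Regions are not independent samples, so these correlations describe the lists only.

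H3K4me1 lay on the shoulders of H3K4me3 in both treatments, mostly on 1 side. At the midpoint of the widest vehicle H3K4me3 peak, 17.9% of the regions were covered by vehicle H3K4me1 (95% Wilson interval 16.0 to 19.97%) and 5.999% by S2101 H3K4me1 (4.89 to 7.33%). When each region was turned so that the side with more vehicle H3K4me1 pointed to the right, vehicle H3K4me1 covered most regions at +0.9 kb, 50.2%, and S2101 H3K4me1 at +1.05 kb, 23.1%. On the left side, at −1 kb, the shares were 16.8% and 10.0%. The vehicle asymmetry follows from the turning. A region also reaches further on the side where vehicle H3K4me1 lies, so S2101 H3K4me1 has more room there by construction, and the part of this in the S2101 asymmetry was not tested. S2101 H3K4me1 was heavier on the same side as vehicle H3K4me1 in 1168 of the 1465 regions where S2101 favoured a side (79.7%, 77.6 to 81.7%). Where vehicle H3K4me1 lay on both sides of the midpoint this was so in 549 of 727 regions (75.5%, 72.3 to 78.5%).

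**Figure D2:**
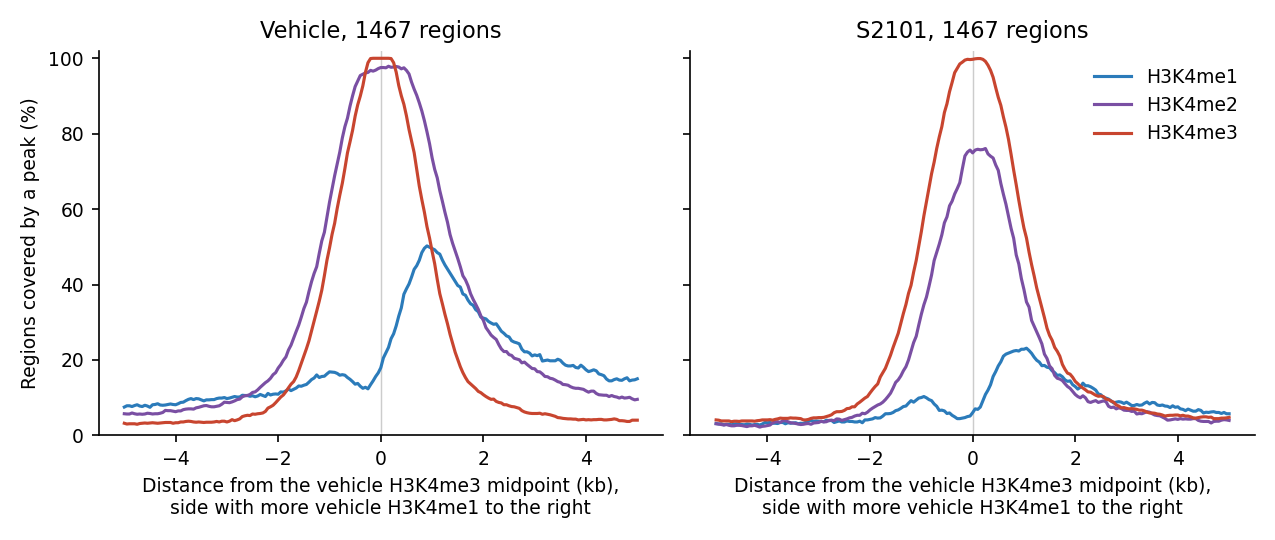
Share of the 1467 regions covered by a peak (y axis, %) at each distance from the midpoint of the widest vehicle H3K4me3 peak (x axis, kb), with the side that holds more vehicle H3K4me1 on the right. Peaks beyond the edges of a region, which belong to neighbouring regions, are counted as well. Vehicle is on the left panel and S2101 on the right panel. H3K4me1 (blue) peaks beside H3K4me3 (red), at 50.2% with vehicle and 23.1% with S2101. H3K4me2 (purple) reaches 97.9% with vehicle and 76.1% with S2101, and H3K4me3 stays near 100% at the midpoint in both.

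H3K4me1 extended beyond the widest H3K4me3 peak of its own treatment on both sides in 484 regions with vehicle (33.0%, 30.6 to 35.4%) and in 141 with S2101 (9.61%, 8.21 to 11.2%). The shares lay closer together, at 21.2% and 10.9%, with lists of equal length. Where each list had to cover 500 bp, both were higher, at 45.8% and 22.7%, with a similar difference between them. H3K4me1 extended beyond that peak on 1 side only in 832 regions with vehicle and 967 with S2101. In 151 regions with vehicle (10.3%) and 359 with S2101 (24.5%), H3K4me1 lay wholly within that peak. Of the 484 regions with vehicle H3K4me1 on both sides, 113 had it on both sides with S2101, 295 on 1 side and 76 on neither. These 484 regions were the widest of the 3 groups (median 3689 bp) and had the lowest H3K4me1 ratio, 0.355 (0.334 to 0.378). The ratio was 0.526 (0.505 to 0.553) in the 832 regions with vehicle H3K4me1 on 1 side and 0.733 (0.656 to 0.778) in the 151 where it lay within H3K4me3. The vehicle H3K4me1 length differed in the same order, with medians of 1769, 843 and 452 bp. The corresponding S2101 medians were 582, 423 and 317 bp, so they spanned a smaller range. Per region, a median of 54.6% of the H3K4me1 length lay outside H3K4me3 with vehicle (52.7 to 56.9%) and 49.5% with S2101 (45.3 to 53.7%). With peaks of score 200 or more the shares were 66.6% and 73.2%, so their order turned. The quartiles with S2101 were 0 and 96.2%, so the regions ran from H3K4me1 wholly under H3K4me3 to H3K4me1 almost wholly outside it.

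A region that overlaps all 6 lists need not hold them at the same base. A base under all 3 marks was found in 1274 regions with vehicle (86.8%, 85.0 to 88.5%) and in 915 with S2101 (62.4%, 59.9 to 64.8%), and a base under all 6 lists in 706 (48.1%, 45.6 to 50.7%). Where there was one, the stretch under all 6 lists was 245 bp at the median (quartiles 130 and 345 bp). The peaks of both treatments shared a base in all 1467 regions for H3K4me2, in 1466 for H3K4me3 and in 1296 for H3K4me1 (88.3%). The 706 regions were narrower than the other 761, with medians of 2679 and 3364 bp, and had a higher H3K4me2 ratio, 0.657 (0.637 to 0.673) against 0.516 (0.503 to 0.532). The H3K4me1 ratios of these groups were close, 0.491 and 0.481. A higher H3K4me2 ratio follows in part from the split, since a shared base needs S2101 H3K4me2 at the H3K4me1 peak.

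Base by base, H3K4me1 and H3K4me2 overlapped with vehicle and lay largely apart with S2101. Of the vehicle H3K4me1 bases, 77.6% also lay under vehicle H3K4me2, while 36.9% of the S2101 H3K4me1 bases lay under S2101 H3K4me2. H3K4me2 filled a median of 92.0% of a region with vehicle and 51.1% with S2101. A lower overlap thus follows in part from the shorter H3K4me2, and how large this part is was not tested. Bases with H3K4me1 and H3K4me2 but no H3K4me3 went from 797.0 kb with vehicle to 59.8 kb with S2101, and bases with all 3 marks from 824.9 to 291.9 kb. Bases with H3K4me1 alone came to 463.4 kb with vehicle and 487.4 kb with S2101, although the total H3K4me1 length was lower with S2101. Of the vehicle bases with H3K4me1 and H3K4me2, 27.1% had H3K4me1 alone with S2101, 5.61% kept both without H3K4me3 and 36.3% had no mark. Of those with all 3 marks, 23.6% kept all 3, 53.3% kept H3K4me2 and H3K4me3 without H3K4me1, and 12.8% had H3K4me3 alone. Of the marks that shared these bases with vehicle, H3K4me1 was thus more often absent with S2101 under H3K4me3, and H3K4me2 more often absent outside it.

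**Figure D3:**
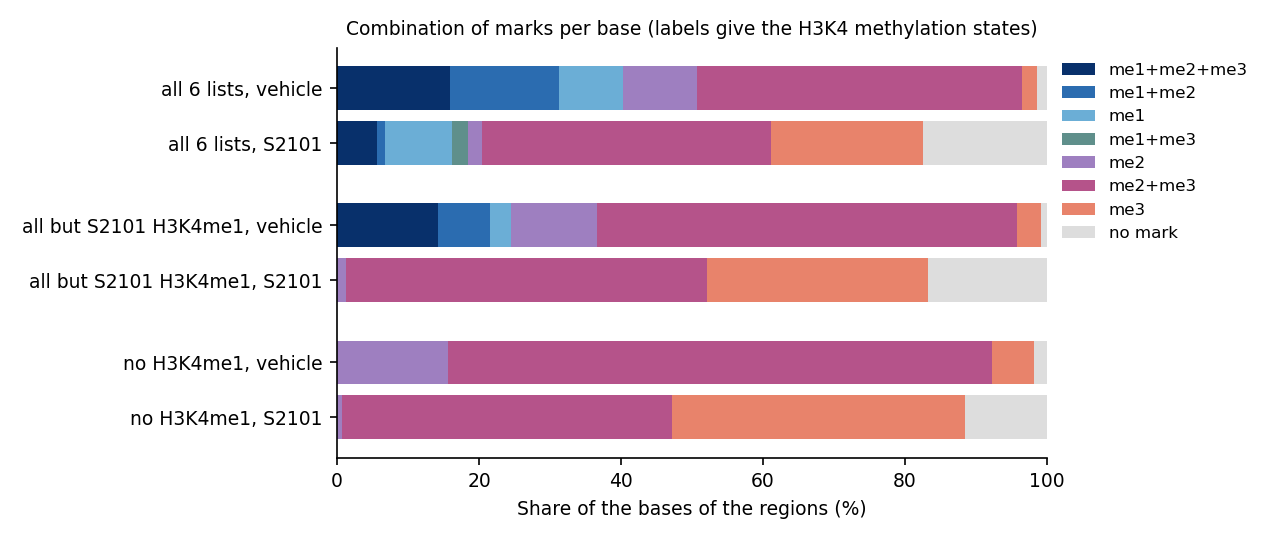
Share of the bases of each group of regions (x axis, %) with each combination of marks, for vehicle and S2101. In the regions with all 6 lists, bases with H3K4me1 and H3K4me2 go from 15.4% to 1.15% and bases with all 3 marks from 15.9% to 5.63%, while bases with H3K4me1 alone are 8.94% and 9.41%, and bases with H3K4me3 alone go from 2.13% to 21.4%.

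The same contrast between the interior and the flanks of H3K4me3 was seen for each mark taken by itself. Of the vehicle H3K4me2 bases under vehicle H3K4me3, 70.9% also had H3K4me2 with S2101, and of those outside it 21.1%. In 1403 of the 1460 regions with H3K4me2 in both positions (96.1%) the share kept was higher under H3K4me3. For H3K4me1 the order was the reverse and the gap smaller, with 30.8% kept under H3K4me3 and 41.8% outside, and a higher share outside in 611 of 1130 regions (54.1%, 51.2 to 57.0%) against 435 with a higher share inside. Of the lost H3K4me2 bases, 30.0% lay between separate S2101 H3K4me2 peaks and the rest at the outer edges. The vehicle H3K4me2 was 1 unbroken peak in 1082 regions (73.8%) and the S2101 H3K4me2 in 493 (33.6%). At least 3 peaks were listed in 43 regions with vehicle and in 413 with S2101. The H3K4me3 midpoint lay under H3K4me2 in 97.5% of the regions with vehicle and in 74.9% with S2101.

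Most S2101 bases lay where the same mark was also listed with vehicle. The share of S2101 bases already under a vehicle peak of their own mark was 82.0% for H3K4me1, 99.2% for H3K4me2 and 89.0% for H3K4me3. H3K4me3 kept 97.5% of its vehicle bases and gained 398047 bp, 11.0% of its S2101 length. Of the gained bases, 90.8% had held H3K4me2 with vehicle and 52.1% H3K4me1. Most bases open to a gain, those outside vehicle H3K4me3, held at least 1 of these marks. With vehicle, 797.0 kb of them held both, 463.4 kb H3K4me1 alone, 535.8 kb H3K4me2 alone and 74.2 kb no mark. How far this make-up of the regions sets the 90.8% and 52.1% was not tested. The gain was larger on the side with more vehicle H3K4me1 in 793 of 1356 regions with a difference (58.5%, 55.8 to 61.1%). A region reaches further on that side by construction, which leaves more room for a gain there. The part of this in the 58.5% was not tested. The net change in H3K4me3 length was +151 bp at the median (quartiles 22 and 339 bp).

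Regions with all 6 lists included both short and long H3K4me3. The 4828 regions with vehicle H3K4me1 and with H3K4me2 and H3K4me3 in both treatments were divided into 5 bins of nearly equal number by vehicle H3K4me3 length. The regions with all 6 lists made up 34.4% of the bin with the shortest H3K4me3 (1257 bp or less), 26.1%, 24.0% and 29.9% of the next bins in order, and 37.5% of the longest (2800 bp or more). The 332 short ones were 1777 bp wide at the median, and vehicle H3K4me1 was longer than H3K4me3 in 192 of them (57.8%, 52.5 to 63.0%). Their H3K4me3 midpoint lay under vehicle H3K4me1 in 49.1% (43.8 to 54.5%), against 3.59% (2.11 to 6.05%) of the 362 regions in the longest bin. The regions lacking only S2101 H3K4me1 had midpoint shares of 37.9% and 3.31% in the same bins. Vehicle H3K4me1 was longer than H3K4me3 in 21.5% and 0.497% of them. Both quantities depend on the H3K4me3 length that sets the bins. The 332 short regions with all 6 lists had low H3K4me3 scores, with a median of 316. Of these, 1.81% had a score of 3100 or more, a value at which many scores stand, against 97.0% in the longest bin. The 362 long ones were 5340 bp wide, and H3K4me1 was longer than H3K4me3 in 8.29%. The H3K4me1 ratio was 0.525 (0.484 to 0.568) in the short regions and 0.423 (0.374 to 0.469) in the long, and the H3K4me3 ratio 1.18 (1.13 to 1.22) and 1.05 (1.04 to 1.05). The H3K4me3 ratio shares the vehicle H3K4me3 length with the bins. In the regions lacking only S2101 H3K4me1 it was 1.14 (1.12 to 1.16) and 1.04 (1.03 to 1.04) in the same bins. The H3K4me2 ratio was nearly the same in the short and long regions with all 6 lists, 0.576 (0.546 to 0.619) and 0.582 (0.562 to 0.603).

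Regions that lacked a single list lacked S2101 H3K4me1 in most cases. Of the 3901 regions with exactly 5 lists, 3361 were without S2101 H3K4me1 (86.2%), 312 without vehicle H3K4me1, 179 without vehicle H3K4me3, 32 without S2101 H3K4me2, 17 without S2101 H3K4me3 and none without vehicle H3K4me2. S2101 H3K4me1 is also the list that covers the fewest bases of the genome, 9.34 Mb, with S2101 H3K4me2 next at 15.9 Mb. How far this sets the 86.2% was not tested. Among the regions with 3 marks with vehicle, 29.4% of 4989 also had all 3 with S2101, and in the other direction 74.0% of 1983. The edge of the rule is set by short, low-scoring S2101 H3K4me1 peaks. In 409 regions (27.9%) the S2101 H3K4me1 was 1 peak with a score below 120, and the lowest best score was 100.05, where the list itself starts at 100. The S2101 H3K4me1 peak was joined to the rest by 10 bp or less in 4 regions and by 100 bp or less in 25, with a smallest overlap of 4 bp. Just outside the rule, 131 of the 3361 regions (3.90%) had an S2101 H3K4me1 peak within 500 bp and 203 within 1000 bp, and the median distance was 26978 bp.

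Compared with these 3361 regions, those with all 6 lists held more vehicle H3K4me1. Vehicle H3K4me1 covered 1080 bp against 527 bp at the median, and its best score was 299 (287.9 to 314) against 164 (160 to 166). It lay on both sides of H3K4me3 in 33.0% against 10.6% (9.62 to 11.7%), and 54.6% against 33.0% of its length lay outside H3K4me3. With the 4828 regions in 5 bins, those with all 6 lists were 13.1% of the lowest bin by vehicle H3K4me1 score and 69.2% (66.2 to 72.0%) of the highest. By vehicle H3K4me1 length they went from 11.7% of the lowest bin to 67.5% of the highest. Vehicle H3K4me2 was also longer, 2655 against 2291 bp, whereas vehicle H3K4me3 was of similar length, 2006 (1929 to 2089 bp) against 1922 bp (1878 to 1955 bp). A longer region has more room to meet a peak of any list, so part of these differences is built into the rule.

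H3K4me2 outside H3K4me3 was kept most in the regions with all 6 lists. The share of vehicle H3K4me2 bases kept there was 21.1%, compared with 13.6% in the regions lacking only S2101 H3K4me1 and 8.76% in the 6460 regions without H3K4me1. Under H3K4me3 the shares were 70.9%, 66.9% and 59.0%. The median H3K4me2 ratios were 0.582, 0.576 (0.570 to 0.584) and 0.525 (0.519 to 0.530), so the first pair differed by less than the intervals. With regions divided into 3 bins by vehicle H3K4me2 length, the ratios in the same order of groups were 0.635, 0.616 and 0.548 in the shortest bin, 0.614, 0.583 and 0.520 in the next and 0.555, 0.549 and 0.497 in the longest. The intervals of the groups with vehicle H3K4me1 overlapped in each bin, and both lay above those of the group without it. The H3K4me3 ratios were 1.07, 1.06 and 1.05. In the shortest of 3 bins by vehicle H3K4me3 length they were 1.14 (1.13 to 1.18), 1.11 (1.10 to 1.13) and 1.10 (1.09 to 1.11). They were 1.07, 1.05 and 1.05 in the middle bin and 1.05, 1.04 and 1.03 in the longest.

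The regions were unevenly spread over the chromosomes. Chromosome 11 held 178, chromosome 15 held 172 and chromosome 2 held 152, and chromosome X held 1. As a share of the regions with H3K4me2 and H3K4me3 in both treatments in the 3 groups compared, they made up 33.9% on chromosome 15 (29.9 to 38.1%) and 4.38% on chromosome 7 (3.14 to 6.09%), with a median of 11.3% over 19 autosomes. As a share of those with vehicle H3K4me1, the same chromosomes were at the ends, at 45.1% (40.2 to 50.2%) and 19.1% (13.9 to 25.6%), with a median of 26.6%. With regions divided into 5 bins by vehicle H3K4me1 score, the gap differed between bins. In the highest bin the share was 77.6% of 147 regions on chromosome 15 (70.2 to 83.5%), 68.3% of 801 on the other autosomes (65.0 to 71.4%) and 41.2% of 17 on chromosome 7 (21.6 to 63.99%). In the bin next below it was 32.1%, 32.8% and 30.8%, and in the middle bin 21.3%, 21.5% and 13.9%, with intervals that overlapped. In the bin below the middle it was 26.4% (16.4 to 39.6%), 14.9% (12.7 to 17.4%) and 18.6% (9.74 to 32.6%). The lowest bin had 10.7%, 13.5% and 9.80%. Among the autosomes, chromosome 15 also had the highest median H3K4me2 ratio, 0.668, and chromosome 7 the lowest, 0.466. The autosomal H3K4me1 ratio ran from 0.405 on chromosome 18 to 0.566 on chromosome 14.

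**Figure D4:**
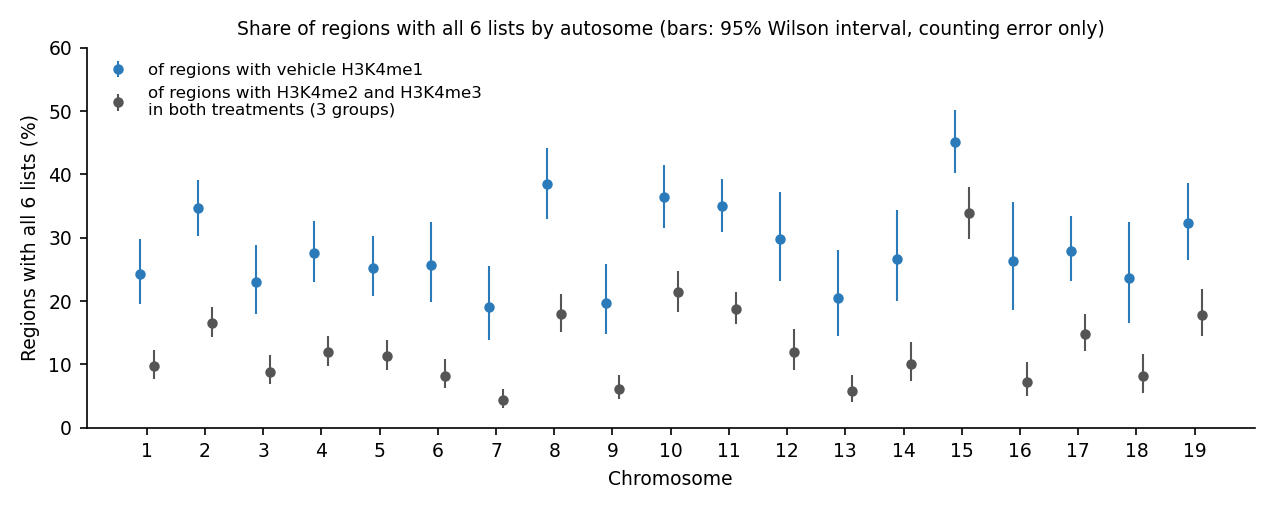
Share of regions with all 6 lists on each autosome (y axis, %): blue points are shares of the regions with vehicle H3K4me1, grey points shares of all regions of the 3 groups, and bars are 95% Wilson intervals for counting error. Chromosome 15 stands highest, at 45.1% and 33.9%, and chromosome 7 lowest, at 19.1% and 4.38%.

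The 3 widest regions with all 6 lists were chains of peaks in which H3K4me1 lay partly over H3K4me3 and partly beside or between its blocks. In order of width, 7038 of 12361, 2407 of 4442 and 6284 of 13564 bp of their vehicle H3K4me1 lay under all 3 marks. The widest lay on chromosome 15 (85493752 to 85521831) and spanned 28080 bp. Its H3K4me1 came to 12361 bp in 12 peaks with vehicle and to 6167 bp in 11 peaks with S2101. H3K4me2 covered 25742 bp in 2 peaks with vehicle and 19286 bp in 18 peaks with S2101. H3K4me3 covered 20997 and 23083 bp. All but 2 of the S2101 H3K4me1 peaks lay to the right of 19.8 kb from the region's start, over the right-hand vehicle H3K4me3 peak and beyond it. In all, 2535 bp were under all 6 lists.

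The next was also on chromosome 15 (102783239 to 102805133, 21895 bp). It was under vehicle H3K4me2 along its whole length, and 11 S2101 H3K4me2 peaks covered 16300 bp. Its H3K4me1 came to 4442 bp in 6 peaks with vehicle and 2745 bp in 5 with S2101, and H3K4me3 16125 and 17249 bp. A region on the same chromosome (76019698 to 76040282, 20585 bp) held the most bases under all 6 lists, 2559 bp. Its H3K4me1 length was 13564 bp for vehicle and 8512 bp for S2101. The first 4 S2101 H3K4me1 peaks ended at 4.47 kb from the start, before S2101 H3K4me3 (from 4.598 kb) and S2101 H3K4me2 (from 5.62 kb). H3K4me3 was in 3 peaks with vehicle (13087 bp) and in 1 with S2101 (14268 bp).

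On chromosome 2 (93289537 to 93304103, 14567 bp), H3K4me1 and H3K4me3 lay mostly side by side. Vehicle H3K4me1 came to 10994 bp, including 1 peak of 6901 bp (score 2692.31), and S2101 H3K4me1 4202 bp in 9 peaks. H3K4me3 was 1 peak in each treatment, 4499 and 4861 bp, and no base was under all 6 lists. On chromosome 3 there were regions at 87941402 to 87955327 (13926 bp) and 88418153 to 88431977 (13825 bp). Their H3K4me1 went from 7953 to 2518 bp and from 4187 to 2121 bp, and neither had a base under all 6 lists. On chromosome 4 (125927725 to 125940609, 12885 bp) H3K4me1 covered 5677 and 2661 bp and H3K4me2 10642 and 4809 bp, and 28 peaks in all were listed. The regions on chromosome 5 (143574138 to 143586135, 11998 bp) and chromosome 6 (42298215 to 42309541, 11327 bp) differed in their make-up. The first was filled by H3K4me3 (11293 and 11660 bp) and had H3K4me1 of 1161 bp at its ends with vehicle and of 343 bp at its left end with S2101. In the second, a vehicle H3K4me1 peak of 3880 bp lay beside H3K4me3, and 8 S2101 H3K4me1 peaks of 2678 bp in all were listed, 5 of them within the vehicle peak. On chromosome 15 (76285514 to 76296796, 11283 bp), H3K4me3 went from 3621 bp with vehicle to 5735 bp with S2101, mainly by added S2101 peaks of 728 bp and 865 bp that overlapped vehicle H3K4me1, and H3K4me1 from 8734 to 4574 bp.

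The regions with the most bases under all 6 lists, besides the wide ones above, were on chromosomes 15 and 8. On chromosome 15 (75576561 to 75580119, 3559 bp), 1637 bp were under all 6 lists, and the H3K4me1 lengths were 2931 and 1934 bp. At 85410811 to 85412710 on the same chromosome, 1282 of 1900 bp were under all 6 lists. There vehicle H3K4me1 was 1 peak of 1553 bp over H3K4me3 of 1713 bp, and S2101 H3K4me1 was 3 peaks of 1331 bp in all over H3K4me3 of 1710 bp. On chromosome 8 (87294583 to 87300786, 6204 bp), 1414 bp were shared, and H3K4me1 covered 4573 and 2465 bp. A region on chromosome 10 (79622724 to 79631942, 9219 bp) was among the 5 with most peaks, 27, and had H3K4me1 of 6765 and 2505 bp.

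Among the 789 regions with at least 1000 bp of vehicle H3K4me1, the highest H3K4me1 ratios ran from 1.09 to 1.35. The first was on chromosome 11 (120208519 to 120213605), where H3K4me1 went from 1172 to 1580 bp (ratio 1.35) at the right edge of an H3K4me3 peak of 3834 and 3847 bp. The others were on chromosome 15 (81754936 to 81757640, ratio 1.29), chromosome 10 (128345901 to 128352534, 1.19), chromosome 2 (25219062 to 25221598, 1.09) and chromosome 11 (32124038 to 32127502, 1.09). H3K4me2 was shorter with S2101 in all 5, with ratios from 0.51 to 0.90. The lowest ratio was also on chromosome 11 (98797008 to 98804386), where 7 vehicle H3K4me1 peaks of 3909 bp in all stood against 1 S2101 peak of 279 bp (score 120.44), a ratio of 0.071. There H3K4me3 went from 5571 bp in 2 peaks to 7074 bp in 1, and H3K4me2 from 7203 to 5559 bp. The next were on chromosome 12 (88231511 to 88239888, 2914 to 272 bp), chromosome 14 (70556925 to 70561240, 2431 to 230 bp), chromosome 4 (123081809 to 123090948, 3082 to 321 bp) and chromosome 15 (102834626 to 102838594, 3567 to 376 bp). In each of the 5 the S2101 H3K4me1 was 1 peak with a score of 103 to 127, so these regions are close to the edge of the rule.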

How the data were processed

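The 6 deposited files are peak lists of the authors, 1 per library, called with MACS in Galaxy per the file headers. Bowtie2, deepTools and build mm9 are named per the submitters' processing notes; the sources used here do not give settings, caller version, control input or read counts. The deposited score is the authors' value per peak and was used within a list only. The 4 inputs and 2 H3 samples were not used here. Peaks sharing at least 1 bp were merged into regions, and covered length is the number of bases under a list in a region. Intervals are 95% Wilson for shares and order-statistic (binomial) for medians. With 1 library per group no test was possible, and depth is unknown. Merging and base counts were checked against bedtools 2.31.1, and 200 of 200 regions planted in simulated lists were recovered. Named regions are the 10 widest, the 5 with most bases under all 6 lists, the 5 with most peaks, and the 5 highest and 5 lowest H3K4me1 ratios (24 in all). Members, rules and alternatives were chosen with earlier results of these data known. The gene and promoter tables at hand are of another build (GRCm38), so no gene, motif or base composition was assigned. The scripts ran under Python 3.11.15 with pandas 2.3.3, numpy 2.4.6 and, for intervals and plots, scipy 1.17.1 and matplotlib 3.10.9.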

Additional observations from a re-analysis of the deposited data

How the results depend on the processing

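Of 70 values, from 10 results under 7 alternatives, 33 stayed within 1.5 times (counts) or the 95% interval of the value reported and 37 moved. The H3K4me1, H3K4me2 and H3K4me3 ratios stayed on their side of 1 under every alternative; the other results are counts or shares without a direction of their own. Leaving out chromosome 15 was chosen after seeing the data. No paired analysis was possible because each mark and treatment has 1 library, and no library could be left out. The number of regions with all 6 lists, 1467, was 324 with peaks of score 200 or more, 631 with lists cut to 13589 peaks each, 706 when a base under all 6 lists was required and 565 when each list had to cover 500 bp. The H3K4me1 ratio, 0.487, was 0.521 with 500 bp per list and 0.466 with peaks merged within 500 bp. The H3K4me3 ratio, 1.07, was 1.09 with 500 bp per list. In the order score of 200 or more, equal lists, shared base, 500 bp per list and merging within 500 bp, the H3K4me2 ratio (0.582) was 0.559, 0.570, 0.657, 0.600 and 0.569. In the same order, the share of H3K4me1 length outside H3K4me3 was 66.6%, 63.5%, 39.9%, 62.9% and 66.4% with vehicle, and 73.2%, 61.1%, 17.4%, 62.9% and 70.1% with S2101, so which treatment had the higher share depends on the setting. H3K4me1 on the same side in both treatments came to 86.7%, 86.7%, 84.8% and 87.2% under the first 4. Vehicle H3K4me1 on both sides was 21.2% with equal lists, 36.7% with a shared base, 45.8% with 500 bp per list and 36.6% with merging, and S2101 H3K4me1 22.7% with 500 bp per list and 13.1% with merging. A base under all 6 lists was found in 42.0% with the score minimum, 56.6% with 500 bp per list, 40.8% with merging, 45.6% without chromosome 15, and 100% by construction where it was required. Causes beyond an alternative's own construction were not tested. Unknown depth limits every ratio between treatments. The planned gene, promoter, composition and motif counts were not run.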

Other observations

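In 171 of the 1467 regions the H3K4me1 peaks of the treatments shared no base. In these regions the nearest vehicle and S2101 H3K4me1 peaks were 988 bp apart at the median (quartiles 260 and 1731 bp), and in 124 of them (72.5%, 95% Wilson interval 65.4 to 78.7%) they were heavier on opposite sides of the H3K4me3 midpoint. Choosing regions without a shared base itself favours opposite sides, and its part in this share was not tested. H3K4me1 in the 171 regions was short and low in score, 508 bp and a best score of 157 with vehicle, and 307 bp and 113 with S2101. H3K4me1 was 2 times as long or more with S2101 in 5 regions, a group looked at after the values were seen. All 5 had under 500 bp of vehicle H3K4me1. The highest ratio was on chromosome 10 (74522197 to 74527312), with 461 bp in 1 peak (score 133.05) with vehicle and 2046 bp in 3 peaks (best score 362.27) with S2101, over an H3K4me3 peak of 3962 and 4526 bp.

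The 24 regions in which H3K4me3 was 2 times as long or more with S2101 had little H3K4me3 with vehicle, 572 bp at the median and a best score of 149. With S2101 they had 1467 bp. Choosing regions by this ratio favours a short vehicle H3K4me3. Vehicle H3K4me1 in these regions was longer, 1458 bp, and S2101 H3K4me1 was 663 bp. The region with the highest H3K4me3 ratio was on chromosome 5 (118477267 to 118479884), where H3K4me3 went from 658 to 2494 bp. In another, on chromosome 8 (90811024 to 90816431) and chosen after its values were seen, a vehicle H3K4me1 peak of 5408 bp (score 3077.15) filled the region, H3K4me3 went from 587 to 1591 bp, and H3K4me1 to 2776 bp.

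Some of the regions with all 6 lists lay next to each other. Another such region was within 20 kb for 339 (23.1%), compared with 20.5% of the regions lacking only S2101 H3K4me1 and 20.2% of those without H3K4me1, which are more numerous. Runs of 3 or more numbered 30. Runs of 5 were on chromosome 10 (79781933 to 79812587) and chromosome 8 (87488831 to 87515349), and a run of 4 on chromosome 19 (6982215 to 7027879).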
